A study of Mustela putorius furo with 7 samples.

Results

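Broad stretches of open chromatin, here the regions of 1500 bp or more, were described in pancreatic ductal epithelial (PDE) cultures of ferrets with and without CFTR. Their width, the distance from the start to the end of a row of the authors' consensus matrix, chose them. No signal value entered the rule, but region starts follow the starts of peaks called in these same libraries. Width is therefore not independent of signal, and a region can be broad through the genotype where it is high. The broad regions numbered 1773 of 95129 regions, or 1.86%, and held 5.15% of all bases in regions. The assay was bulk ATAC-seq, where a transposase inserts sequencing adapters into DNA that is not wrapped up. The WT group (4 libraries) and the CF group (3 libraries, genotype CFTR KO/KO, a knockout of both copies of the chloride channel gene in the whole animal) came from ducts of ferrets 1 to 3 days old. All cultures had been passaged 10 times and kept at an air-liquid interface for 14 days, and 50000 cells per culture were taken. Donors are numbered per genotype in the labels, while the study's methods give 3 donors of each, so that a p-value here speaks of how these libraries vary and not of more animals.

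Nucleosomes cover most DNA, and an open region is a stretch from which they are displaced by bound factors. In general an isolated enhancer opens over little more than a nucleosome's length, whereas wide open stretches are known from promoters of active genes, CpG islands and groups of neighbouring elements around genes that set a cell's identity. An open region can therefore be wide as an unbroken stretch or as several adjoining elements read as a unit. No sequence or gene annotation of the assembly MusPutFur1.0 was used here, so regions are named by scaffold and position, counted from 1, without genes or bases, and the ductal label was not checked against marker genes. In bulk cultures, a region open in fewer cells and a region less open in each cell cannot be told apart.

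The matrix held 3226534 to 11047724 reads per library, recovered from the deposited signal as described under the processing. The CF libraries had at least 8469877 reads and the WT libraries at most 8172005, so that depth cannot be told apart from genotype. The most read scaffold took 7.15 to 8.97% of the reads in CF libraries and 12.95 to 22.6% in WT libraries. A broad region held a median of 107 to 468 reads per library, and a narrower region 9 to 45. Signal below is reads multiplied by the authors' factor for each library, and log2 signal is log2(signal + 1).

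Broad regions were among the strongest. Their widths ran from 1500 to 3628 bp with a median of 1680, against 553 bp in narrower regions. The median log2 signal was 8.11 in broad and 4.55 in narrower regions, and the weakest broad region, at 5.20, stood above 63.8% of all regions. The same order held per length, with a median signal per kb of 164 in broad and 48.0 in narrower regions. Of the 500 regions with most signal, 193 were broad. Signal also rose with width inside the class, from a median log2 signal of 7.82 at 1500 to 1599 bp to 9.07 in the 24 regions of 2500 bp or more. At the edge of the rule, the 14 regions of 1498 or 1499 bp included 9 with a peak in all 7 lists and 1 closed region, and the 13 of 1500 or 1501 bp included 12 with a peak in all lists and no called region.

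The broad regions lay on 380 scaffolds, with at most 43 on any of them, and 142 were alone on their scaffold. Another broad region stood within 50 kb of 268 of them, or 15.1%. The median gap to the nearest region of any width was 6918 bp for broad and 5579 bp for narrower regions.

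To evaluate whether the loss of CFTR changed broad regions, their rows were read from a test of genotype over all 95129 regions. CF cultures had 45 broad regions that were more accessible (opened) and 48 that were less accessible (closed), by limma with an adjusted p (Benjamini-Hochberg) below 0.05 and a change of more than 1 on the log2 scale. These are 2.54% and 2.71% of the class, against a background of 4.31% opened and 6.26% closed among all regions tested, or 10.6% called in either direction. For opened regions this order rests on having all 3 CF libraries. Without CF1, CF2 or CF3, 39, 35 and 41 broad regions opened (2.20, 1.97 and 2.31%), above a background of 1.55, 1.43 and 1.46%. Without a WT library the opened broad regions were 2.37 to 2.88% and the background 3.36 to 5.35%. Closed broad regions stayed below the background on leaving out any of the 7 libraries, at 2.26 to 3.497% against 3.96 to 7.28%. The remaining 1680 broad regions were not called. For 1411 broad regions, 79.6%, the 95% interval of the change lay within 1 of zero on the log2 scale, as it did for 18.4% of narrower regions. The median SE of the change was 0.21 in broad and 0.53 in narrower regions. At like signal, in the bins given below, the SE was alike, at 0.217 in broad and 0.219 in narrower regions. With a change past 2 the calls were 11 opened (background 2.85%) and 8 closed (background 2.96%). With the adjusted p alone 73 of the 1773 broad regions opened, a share below the background of 4.59%. By the same threshold 161 closed, a share above the background of 7.29%, so the order for closed regions depends on the fold threshold.

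The middle of the distribution was narrow. The log2 change of broad regions had a median of −0.10 with quartiles at −0.32 and 0.13, while all regions had a median of 0.03 with quartiles at −0.48 and 0.61. At like signal broad regions were not narrower in this sense, with a median absolute change of 0.264 against 0.240 in narrower regions. The order of the median change also turned at like signal, with −0.065 in broad and −0.127 in narrower regions. Opened broad regions had a median change of 1.38 and a range from 1.05 to 4.91, and closed ones a median of −1.30 and a lowest value of −4.92. The median log2 signal was 6.77 in opened and 7.31 in closed regions, both below the 8.11 of the class. In 122 broad regions each CF library stood above each WT library and in 331 each WT library stood above each CF library, together 25.5% of the class against 24.2% of all regions. By direction the background was 11.5% with CF above WT and 12.8% with WT above CF, and the broad regions had 6.88% and 18.7%. Narrower regions of like signal, in the bins given below, leaned the same way. They had 4.40% with CF above WT and 17.1% with WT above CF, beside 6.88% and 18.6% of broad regions in those bins.

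The balance of opened and closed broad regions moved with the scaling. Scaled by library size alone, 94 opened (background 8.08%) and 22 closed (3.61%). Upper-quartile factors gave 69 (6.03%) and 33 (4.74%), whereas the edgeR test on recovered reads gave 48 (5.41%) and 47 (7.3%). TMM factors gave 50 (4.58%) and 44 (5.82%), and TMM factors after thinning every library to the same number of reads gave 51 (3.74%) and 42 (5.25%). Library size alone raised the median change of all regions from 0.03 to 0.38, and that of broad regions from −0.10 to 0.26. The distance of broad regions from the median of all regions, −0.13 with the authors' scaling, was then −0.12, and −0.05 in the edgeR test. This distance was not taken at like signal, where the order of the medians turned.

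**Figure D1:**
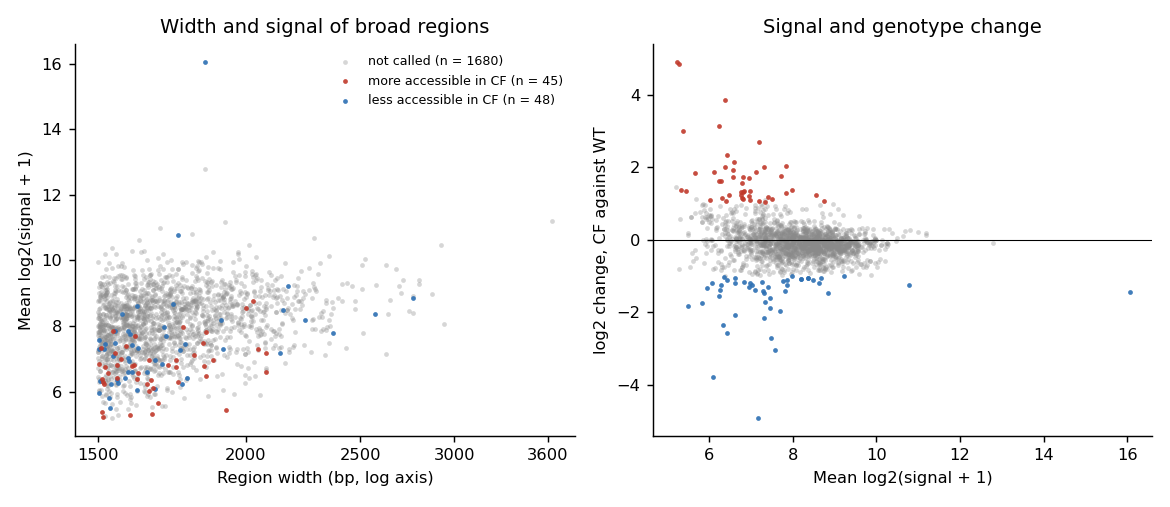
Left, mean log2 signal (y axis) of the 1773 broad regions against their width (x axis, bp, log scale). Right, log2 change of CF against WT (y axis) against mean log2 signal (x axis), with 45 opened regions in red, 48 closed in blue and 1680 not called in grey. The called regions with a change past 2 lie below a log2 signal of 8.

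Signal differed so much between the classes that broad regions were also set beside narrower ones of like signal, in bins of 0.5 on the log2 scale. The bin of 1 broad region held no narrower one, which left 1772. Of these 2.54% opened, against 0.904% of narrower regions weighted to the same bins. Closed regions made up 2.65% and 2.80%. Among bins with at least 20 broad regions, the gap between the classes in opened regions was widest in 2 bins. Bins with fewer broad regions, among them that below 5.5, are not compared singly. The opened regions on GL896941 and GL897100 described below, at 5.29 and 5.24, lay in that bin. At a log2 signal from 6.0 to 6.5, 11 of 80 broad regions (13.75%) and 4.32% of narrower regions opened, and from 6.5 to 7.0, 15 of 143 (10.5%) and 2.60%. From 8.0 to 10.5 the only opened broad regions were 2 of 341 from 8.5 to 9.0. Beside narrower regions of like signal per kb the shares were 2.54% against 1.74% for opened and 2.71% against 4.86% for closed regions. These shares compare regions within the same 7 libraries and carry no test. Nor is width independent of the calls. The widest single peak came from a CF list in 44 of 45 opened broad regions, and from a WT list in 43 of 48 closed ones. The part of this in the opened share was not tested.

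With libraries as the replicates, no difference between the genotypes was detected. The median log2 signal of broad minus narrower regions of like signal, each relative to the mean of both genotypes, was 0.028 ± 0.011 (CF, SD, n = 3) against −0.022 ± 0.051 (WT, SD, n = 4). For the difference of 0.050, the two-sided exact permutation test had p = 0.171, or 0.2 when adjusted over 6 measures per library. The WT libraries ran from −0.094 to 0.024 and the CF libraries from 0.017 to 0.039, so the ranges overlapped. The smallest p this design allows is 0.0286, and a single measure at that p would not fall below 0.05 after adjustment over the 6. The adjusted test therefore had little room to detect a difference, and no conclusion is drawn from it.

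**Figure D2:**
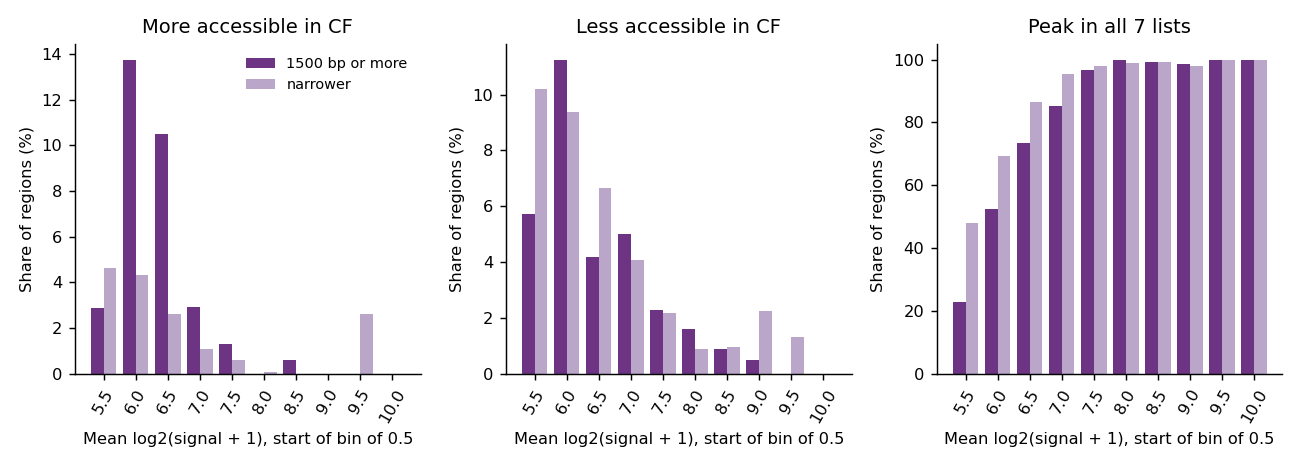
Share of regions (%, y axis) that opened (left), closed (middle) or had a peak in all 7 lists (right) in bins of mean log2 signal (x axis, start of each bin), for regions of 1500 bp or more (dark) and narrower regions (light). Only bins with at least 20 broad regions are shown. Among these, broad regions opened more often from 6.0 to 7.0, and below 7.5 fewer of them had a peak in all lists.

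The share of reads in regions that fell into broad regions was 9.71% ± 0.28 (CF, SD, n = 3) against 9.24% ± 0.28 (WT, SD, n = 4), p = 0.0857 by a two-sided exact permutation test. Without the most read scaffold it was 10.6% ± 0.22 (CF, SD, n = 3) against 11.3% ± 0.54 (WT, SD, n = 4), so its direction depended on that scaffold. Across the 1773 regions, Pearson correlations of log2 signal were 0.94 to 0.97 for pairs of CF libraries, 0.88 to 0.94 for pairs of WT libraries and 0.77 to 0.86 across genotypes, as a description of libraries that share the regions. The spread between libraries of a genotype was lower in CF, with a median SD of 0.16 in CF and 0.29 in WT on the log2 scale. Narrower regions of like signal had 0.18 and 0.31, beside 0.17 and 0.31 for broad regions in the same bins.

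The first named opened region lay on GL897016 from 1039252 to 1040763. Its signal was 288, 327 and 334 in the CF libraries and 20.5, 31.1, 24.6 and 11.7 in the WT libraries. The groups stood far apart, with a change of 3.86 ± 0.32 on the log2 scale (SE; adjusted p of limma 2.08e-07), and peaks covered 70.9 to 95.8% of it in the CF lists, while among WT lists only WT3 held a peak. On GL896949, from 6215319 to 6217398, the CF libraries had 354, 393 and 368 and the WT libraries 55.8, 49.7, 52.3 and 68.7. This second region kept a peak in all 7 lists but with less cover in WT, at 13.1 to 24.3% of its length in WT lists and 70.6 to 99.3% in CF lists.

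Another pair had no peak in any WT list. On GL896941, from 9936830 to 9938426, signal was 196, 233 and 203 in the CF libraries and 19.1, 6.22, 6.15 and 1.68 in the WT libraries. On GL897100, from 3184136 to 3185649, it was 194, 221 and 206 in CF and 27.9, 6.22, 3.08 and 1.68 in WT. The WT libraries held 1 to 13 reads in the former and 1 to 19 in the latter. Their log2 changes of 4.86 and 4.91 therefore depend on the pseudocount, and with a pseudocount of 5 they were 4.18 and 4.16. On GL897100 a second broad region, from 3153741 to 3155309 and 28.8 kb away, opened by 1.09 ± 0.24 (SE; limma, adjusted p = 0.00473).

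The other 4 named opened regions changed by 1.86 to 3.14. On GL896947, from 11550163 to 11552210, signal was 268, 365 and 322 in CF libraries and 116, 74.6, 61.5 and 68.7 in WT libraries. This region is 2049 bp wide and kept a peak in each WT list, with 11.1 to 46.5% of its length covered. On GL896903, from 7076234 to 7077751, the CF libraries had 205, 270.1 and 202 and the WT libraries 30.8, 29.3, 9.23 and 41.9. Here too each CF library exceeded every WT library, and 2 WT lists held a peak. The regions on GL896931 from 13084675 to 13086481 and on GL897058 from 2621458 to 2623013 rose from a mean of 72.1 and 38.7 in WT to 263 and 193 in CF libraries.

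Among closed broad regions the smallest adjusted p was on GL897015, between 4377871 and 4380005. The CF libraries had a signal of 25.1, 19.4 and 32.6 there and the WT libraries 829.1, 826, 935 and 613, which is a change of −4.92 ± 0.23 on the log2 scale (SE; adjusted p of limma 8.95e-11). It was the only closed broad region without a peak in any CF list, and peaks covered 70.6 to 100% of it in WT lists. On GL896904, from 5626971 to 5628645, signal was 25.9, 14.9 and 12.9 in CF and 326, 277, 274 and 163 in WT libraries, and 1 CF list kept a peak. Both scaffolds were among the 16 with lower signal in CF described further on.

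The 6 other named closed regions kept a peak in every list. On GL896941, from 1576316 to 1577865, signal was 73.7, 66.4 and 67.4 in CF libraries and 390.4, 507, 569 and 397 in WT libraries, with peaks over 19.5 to 59.3% of the region in CF lists. The closed region on GL897077 from 2642457 to 2644239 had 32.1, 32.1 and 38.8 in CF and 230.4, 220.3, 199.9 and 191 in WT libraries. Its peaks covered 16.2 to 20.7% of its length in CF lists and 22.6 to 97.3% in WT lists, and a further region adjoined it. On GL897126, from 1874198 to 1875700, the libraries CF1 and CF3 had 49.4 and 43.3 while CF2 had 129, still below the WT libraries at 440.2, 539, 723 and 513. On GL897010, from 5234328 to 5235844, signal was 70.6, 79.8 and 71.9 in CF and 293, 381, 326 and 349 in WT libraries. The remaining pair lay on GL896940 from 13107793 to 13109568 and on GL896946 from 6435445 to 6437157, with log2 changes of −1.88 and −1.97.

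**Figure D3:**
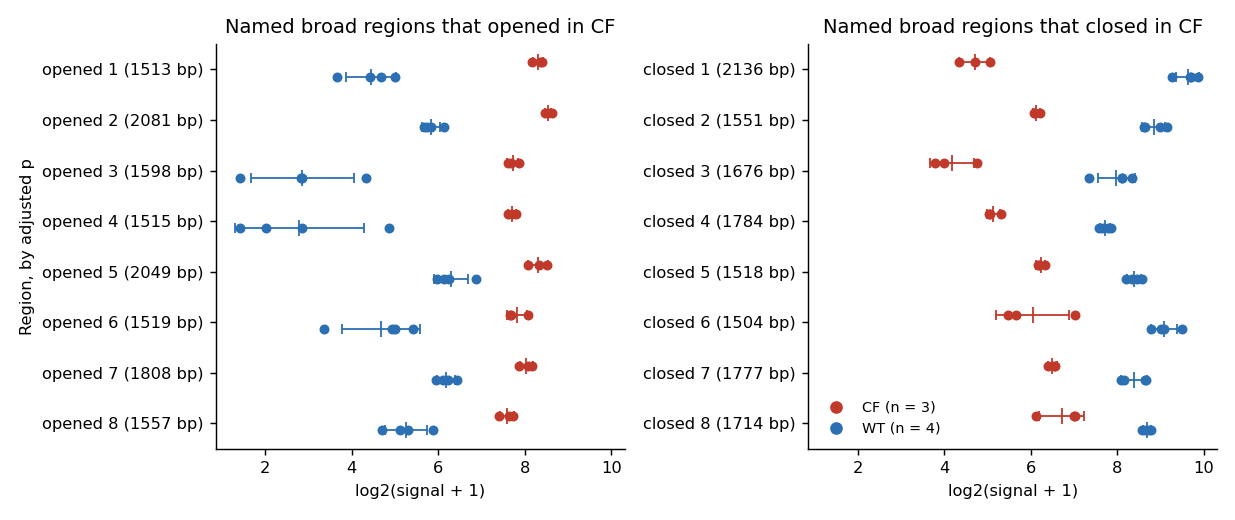
Log2 signal (x axis) of the 8 named opened (left) and 8 named closed (right) broad regions in order of adjusted p (y axis, with width), where dots are libraries, ticks are means and lines are SDs (CF red, n = 3, WT blue, n = 4). The ranges of CF and WT stay apart in all 16, which was a condition of the choice.

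Some broad neighbours were called alike. Of 143 pairs of broad regions that followed each other within 50 kb, 13 had a called member, 3 had both members closed and 1 had both opened. The closed region on GL897010 stood 10.96 kb from another broad region, from 5221750 to 5223370, whose log2 change was −1.73 ± 0.24 (SE; limma, adjusted p = 7.97e-05). On GL896915 the regions from 2659405 to 2661022 and from 2675183 to 2676783 closed by −1.20 and −1.31. On GL896997, among the scaffolds with lower CF signal, the pair from 105024 to 106927 and from 121342 to 123586 closed by −1.09 each. No pair held an opened and a closed region. The same share over neighbouring regions of any width was not computed.

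The scaffolds with lower CF signal were found by the rule of an earlier account of these data, a median change below −0.3 relative to all regions of a mean log2 signal above 5, on scaffolds with at least 40 such regions. The 16 scaffolds held 137 broad regions, 7.73% of the class and 7.21% of all regions. Broad regions above that signal entered the rule themselves, so the median change of broad regions, −0.58 there and −0.08 elsewhere, describes the choice. Of the called broad regions, 10 closed and 3 opened ones lay there, which left 38 closed and 42 opened on the other scaffolds. The part of the lower scaffolds in the closed calls was not tested.

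The authors' peak lists, of which each library has its own, gave a measure apart from the matrix. The columns of the matrix and the lists agreed in genotype but seldom in replicate number. Over regions, the log2 signal of a column followed best a list of the same genotype in 7 of 7 cases and the list of the same name in 1, so columns and lists are named separately and no value joins a column to a list. A peak was present in all 7 lists in 1609 broad regions, 90.8%, and in 25.2% of narrower regions. At like signal the order turned, with 90.7% of broad and 94.6% of narrower regions, but at like signal per kb narrower regions had 74.4%. No broad region had a peak in fewer than 3 lists, while every region of the matrix had one in at least 2. Of the 164 without a full set, 151 had all CF lists and lacked at least 1 WT list, and 128 lacked the list WT2, the shortest of all with 48417 peaks. Without that list 95.5% of broad regions had a peak in all others.

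Called broad regions differed in how they lost or gained peaks. All 45 opened regions had a peak in every CF list, and 33 of them lacked one in at least 1 WT list, 3 in all WT lists. All 48 closed regions had a peak in every WT list, and 43 of them kept one in every CF list as well. With equal numbers of the strongest peaks per list, 36 opened regions lacked a WT peak and 31 closed regions kept a peak in all lists. Without the list WT2, 25 opened regions lacked a WT peak and 43 closed regions kept all. Narrower opened regions of like signal had a peak in all 7 lists in 44.7% of cases, against 26.7% of the broad ones, and narrower closed regions in 89.75%, against 89.6%. For closed regions this likeness held for the deposited lists and not under stricter ones, with 80.1% of narrower and 64.6% of broad regions at equal numbers of peaks, and 81.0% and 68.75% for peaks with a q of 1e-05 or less. All these narrower shares are weighted to the bins of 43 opened and 46 closed broad regions, while the broad shares cover all 45 and 48. The WT lists were shorter on average than the CF lists. The part of list length in how opened and closed regions kept peaks was not tested.

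**Figure D4:**
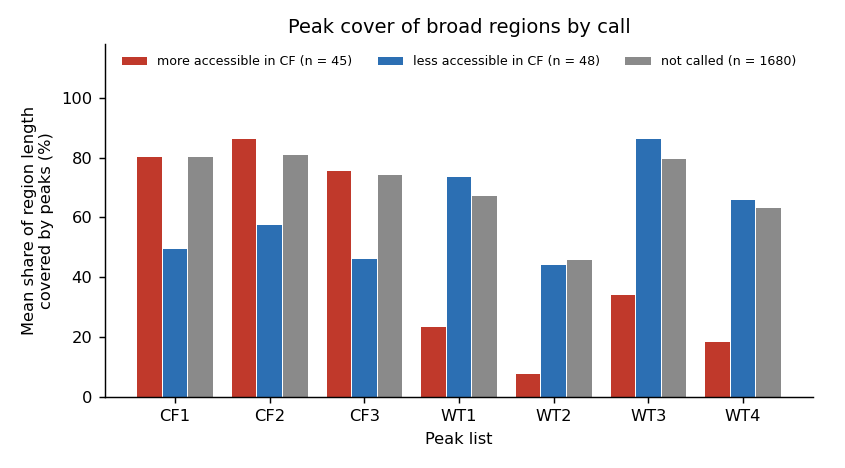
Mean share of the length of broad regions covered by peaks (%, y axis) in each of the 7 peak lists (x axis), for 45 opened (red), 48 closed (blue) and 1680 regions without a call (grey). Opened regions were covered over 7.49 to 33.9% of their length in WT lists, and closed regions over 46.2 to 57.3% in CF lists.

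In closed regions the peaks of CF lists covered on average less of the length. Peaks covered on average 51.0% of the length of closed broad regions in CF lists and 67.4% in WT lists, whereas regions without a call were covered over 78.4% and 63.8%. The list WT2 was an exception, with 44.2% of closed regions' length, below each CF list. In opened regions the means were 80.6% in CF and 20.8% in WT lists. The widest single peak in a region came from a CF list in 44 of 45 opened regions and from a WT list in 43 of 48 closed regions. Among uncalled regions it came from a CF list in 1002 and from a WT list in 672. The calls and the lists rest on the same cultures, so these values describe the called regions and are no second test.

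A broad region was seldom a single peak in every culture. In 1439 regions, 81.2%, at least 1 list held a peak over 80% or more of the length, but in only 47 regions did all 7 lists. In the other 334 regions no peak of any list reached that share. These had a lower median log2 signal, at 7.16 against 8.31, and opened or closed in 3.29% and 3.59% of cases, against 2.36% and 2.50%. At least 2 peaks in some list were found in 1350 regions, 76.1%, and at least 2 in every list in 21.

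The lists of the genotypes were compared for cover and number of peaks. Peaks covered 79.4, 80.3 and 73.3% of the length of broad regions in the lists CF1 to CF3 and 66.3, 44.6, 78.5 and 62.0% in the lists WT1 to WT4. The means were 77.7% ± 3.77 (SD, n = 3) and 62.8% ± 14.0 (SD, n = 4), with an exact permutation p of 0.114 (two-sided). The list WT3 lay within the range of the CF lists and the list WT2 far below. The share held mostly by 1 peak, at 80% or more of the length, was 43.3, 50.1 and 34.8% in CF lists and 26.8, 4.79, 49.3 and 20.4% in WT lists (exact permutation p = 0.2, n = 3 and 4). A broad region had 1.36 ± 0.06 peaks (CF, SD, n = 3) against 1.31 ± 0.03 (WT, SD, n = 4; exact permutation p = 0.171), where narrower regions of like signal had 1.03 and 1.02. None of the 6 measures per library passed, each with an adjusted p of 0.2. With so few libraries the adjustment lets no single measure pass, so this does not speak against a difference.

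Broad regions with a peak made up 99.7% ± 0.16 (CF, SD, n = 3) against 96.9% ± 2.85 (WT, SD, n = 4), p = 0.0857 in the exact permutation test. With the same number of strongest peaks in every list the shares were 97.6, 96.8 and 96.8% in CF and 94.4, 92.8, 93.6 and 94.6% in WT lists. These groups did not overlap, and the difference of 3.21 percentage points had an exact permutation p of 0.0286 (two-sided), the smallest the design allows and not adjusted for the measures and alternatives tried. Narrower regions of like signal had 99.6% ± 0.21 (CF, SD, n = 3) against 98.1% ± 1.51 (WT, SD, n = 4).

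**Figure D5:**
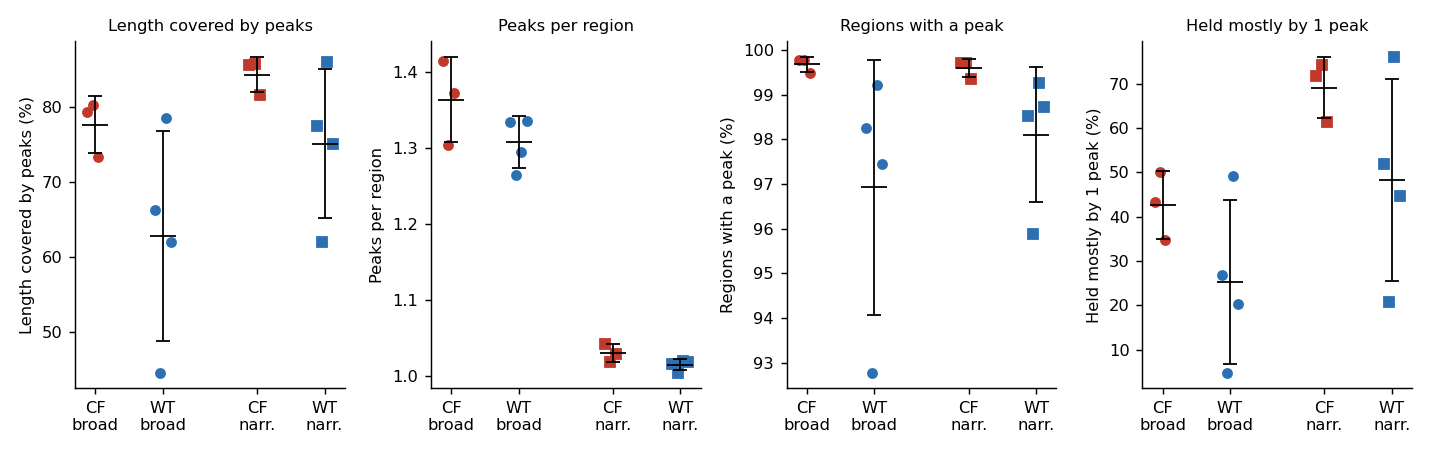
Measures of the peak lists (y axes, from left: length covered in %, peaks per region, regions with a peak in %, regions held mostly by 1 peak in %) for broad regions (circles) and narrower regions (narr., squares) of like signal, with a point per list, bars for means and whiskers for SDs (CF red, n = 3, WT blue, n = 4). The y axes do not start at 0, and in broad regions the WT lists spread wider than the CF lists in 3 of the 4 measures.

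The highest point of a broad region varied between lists. In the 1609 broad regions with a peak in all lists, the summits of the strongest peak lay a median of 301 bp apart between the outermost lists, and in narrower regions 156 bp. Width bounds this distance, and as a share of the region's width the medians were 18.0% in broad and 20.1% in narrower regions. Taken by pairs of lists, the median distance was 40 to 46 bp within CF, 56 to 80 bp within WT and 48 to 73 bp between genotypes, so that the distances across genotypes overlapped those within WT. In the 43 closed regions with a full set of peaks, the outermost summits lay a median of 848 bp apart, against 294 bp in 1554 uncalled regions and 332 bp in 12 opened ones. Pairs of lists across genotypes differed by 76 to 290 bp in the closed and by 46 to 70 bp in the uncalled regions. Pairs within CF differed by 95 to 171 bp in the closed and 39 to 44 bp in the uncalled regions, and pairs within WT by 60 to 146 bp and 53 to 79 bp. In the 12 opened regions the distances were 76 to 180 bp across genotypes, 74.5 to 147.5 bp within WT and 37 to 65 bp within CF.

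The widest region, 3628 bp on GL896998 from 7314108 to 7317734, was not called. Its signal was 3298, 2034 and 2292 in CF libraries and 2686, 1387, 3165 and 1991 in WT libraries, a log2 change of 0.18 with a 95% interval from −0.33 to 0.68. Of the 6 widest regions none was called, and 1 of them, on GL896931 from 12760670 to 12763541, passed on adjusted p alone, with a change of −0.77 ± 0.19 on the log2 scale (SE; limma, adjusted p = 0.01). That pass was lost without CF1 (limma adjusted p = 0.0612), without CF3 (0.0783) and with library size alone, where the change was −0.41 (0.146). The others had changes from −0.03 to 0.25, and their intervals lay between −0.57 and 0.78. Among all 231 regions of 2000 bp or more, 5 opened and 7 closed. From 2000 to 2499 bp, 5 of 207 opened and 5 closed, or 2.42% each. At 2500 bp or more, none of 24 opened and 2 closed (8.33%). Among all regions of the matrix 4.31% opened and 6.26% closed.

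The region of highest signal among the broad ones filled positions 1 to 1846 of the short scaffold AEYP01112718. Its signal was 47113, 36279.6 and 40666 in CF libraries and 76197, 81883, 173701 and 149357 in WT libraries, a change of −1.46 ± 0.42 on the log2 scale (SE; limma, adjusted p = 0.0286). This call was lost on leaving out any CF library or WT4, with adjusted p (limma) from 0.0937 to 0.274, and in 2 further alternatives. On GL898713, from 1713 to 3464, signal was 1516, 910.1 and 1084 in CF and 3647, 1798, 3915 and 2089.9 in WT libraries, a change of −1.24 ± 0.25 on the log2 scale (SE; limma, adjusted p = 0.00249), which was −0.88 with library size alone. The other 4 of the 6 strongest had changes from −0.08 to 0.21 and none was called.

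For some broad regions the change was bounded closely. In 277 broad regions, 15.6%, the 95% interval lay within 0.5 of zero, against 1.15% of narrower regions. These shares were not computed at like signal, where the median SE was alike, at 0.217 in broad and 0.219 in narrower regions. The region on GL897273 from 119075 to 120899 had a signal of 981, 1074 and 955 in CF libraries and 991, 957, 1070.3 and 980.4 in WT libraries, with a log2 change of 0.01 and an interval from −0.34 to 0.35. On GL897098, from 806157 to 808049, the mean signal was 857 ± 55.9 (CF, SD, n = 3) against 899 ± 49.7 (WT, SD, n = 4). On GL896909, from 10312547 to 10315347, also among the 6 widest, the libraries ran from 637 to 667 in CF and from 559 to 618 in WT. These bounds hold for the authors' scaling, since library size alone moved the last change from 0.13 to 0.49.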

How the data were processed

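According to the study's methods, reads were trimmed (Trimmomatic), aligned to MusPutFur1.0 (Bowtie 2) and turned by the authors into peaks per library (MACS2) and consensus regions (DiffBind). The deposited signal equalled whole reads times 1 factor per library for 100% of values (tolerance 0.001 reads, minimum 1 read). Matrix starts lay 1 base before a peak start, so a region covers 1 base less than its width. In the deposited peak lists, the score, the fold enrichment (a ratio) and the p-value were used at most to order peaks, and the q-value as −log10 also as an alternative threshold. Handling of duplicates is not given in the sources used here beyond peak names that hold "dedup".

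Log2(signal + 1) was tested with limma 3.58.1 (mean trend, genotype only, R 4.3.3), Benjamini-Hochberg over 95129 regions. Alternatives used edgeR 4.0.16, with 5143 opened and 6948 closed regions in all, and DESeq2 1.42.0. Values per library were compared by two-sided exact permutation over 35 splits. The test was tried on simulated data. The region class, lists and tests were chosen with earlier results of these data known. Named regions are the 8 opened and 8 closed broad regions of smallest adjusted p whose groups do not overlap, the 6 widest, the 6 of highest mean signal, and the 4 of smallest SE whose 95% interval lies within 0.5 of zero. Neighbouring pairs were named after their values were seen.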

Additional observations from a re-analysis of the deposited data

How the results depend on the processing

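The 16 named opened and closed regions kept direction and call in every alternative fit, while the strong regions on AEYP01112718 (6 fits) and GL898713 (library size) lost the call in some. The wide region on GL896931 from 12760670 lost its adjusted p in 3. Of the counts of opened and closed broad regions, library size as the sole scaling gave 94 and 22, and upper-quartile factors gave 69 opened, and the cause was not tested. Other widths gave 5 opened and 7 closed of 231 regions at 2000 bp or more, and 173 and 216 of 5614 at 1200 bp or more. Among all regions 4.31% opened and 6.26% closed. Other thresholds gave 11 and 8 past a log2 change of 2 (background 2.85% and 2.96%). By adjusted p alone 73 opened and 161 closed of 1773 (background 4.59% and 7.29%). There the closed share lay above the background, the reverse of the order with the fold threshold. The differences in number between these widths and thresholds follow from the definitions. With 1 library left out, 35 to 51 opened and 40 to 62 closed, and without any of the CF libraries the opened share lay above the background (1.97 to 2.31% against 1.43 to 1.55%), the reverse of the order with all libraries. Upper-quartile factors closed 33, and the other scalings, tests and filters gave 43 to 51 opened and 42 to 48 closed. Without the 16 scaffolds lower in CF, an alternative added after seeing the data, 42 opened and 38 closed of 1636 broad regions. The background without these scaffolds is not given here.

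The replicate block, fitted to CF1 to CF3 and WT1 to WT3, gave 55 opened (background 5.46%) and 45 closed (6.46%). Deviations of libraries with the same number correlated at 0.068, 0.086 and −0.024, so that the numbers were not taken as pairs.

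With equal numbers of peaks per list, the difference in peaks per region turned to −0.0047 (exact permutation p = 0.943), and the difference in the share with a peak was 3.21 percentage points (exact permutation p = 0.0286). Without the most read scaffold the difference in the share of reads turned to −0.737 percentage points (exact permutation p = 0.0857), an alternative chosen after seeing the data. The causes were not tested. With 1 library left out, CF minus WT was 0.0303 to 0.0859 peaks per region, 10.6 to 25.4 percentage points held mostly by 1 peak, 1.37 to 3.52 points with a peak, 0.306 to 0.569 points of reads, 8.76 to 20.1 points of length covered, and 0.026 to 0.065 in the shift at like signal.

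Depth limits the weaker regions most. In WT3 the median broad region held 107 reads, and regions at 1 read in a library rest on the file's lowest value, so that their fold is uncertain.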

Other observations

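Some of the strongest broad regions shared an order of libraries, noticed after their values were seen. In this order WT3 stood highest among the WT libraries, followed by WT1, WT4 and WT2, and CF1 stood above CF2 and CF3. It was found in 154 of 1773 broad regions (8.69%) and in 2915 of 93356 narrower regions (3.12%). At a mean log2 signal of 9.5 or more it was found in 21 of 108 broad regions (19.4%) and in 164 of 221 narrower regions (74.2%), where the median ratio of WT3 to WT2 was 1.28 and 2.34. Among the named regions 7 had it, with ratios from 2.18 on GL898713 to 2.64 on GL896899. These are descriptions over regions that share the libraries, and the cause was not tested.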
